A study of Mus musculus with 6 samples.

Results

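Tubular injury and repair markers are genes that kidney tubule cells switch on, or keep on, when they are damaged and when they regenerate. The set described here holds 31 genes, given by symbol, of the 24346 genes listed in each file, and all 31 were found. It was chosen with earlier results of these data known. The genes were measured by RNA-seq in renal cortex from 6 C57BL/6 mice. In 3 mice the feed contained tofogliflozin for 8 weeks, and this feed, which the labels call the HF/HC/HS/BA diet, induces steatohepatitis. Fat, cholesterol and bile salts are among the parts it is high in, and the HS part of the name is not spelled out here. The other 3 mice received the same feed without the drug for 8 weeks, so both groups carry the diet and only the drug differs. Sex, age, drug dose and any pooling are not given in the labels, and mice on ordinary chow were not analysed here. Tofogliflozin inhibits SGLT2, through which the first part of the proximal tubule takes glucose back from the filtrate.

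When a proximal tubule cell is injured it loses its transporters, flattens and re-enters a less specialised state. Such cells show Havcr1 (kidney injury molecule 1) on their surface, release Spp1, fill with keratins and vimentin, and turn on Sox9 as they repair. Cells that fail to recover keep adhesion and signalling genes such as Vcam1 and make factors that act on neighbouring fibroblasts and leukocytes. Several of these genes are also made in a healthy kidney outside the proximal tubule: the keratins 7, 8, 18 and 19 in the collecting duct, Spp1 and Clu in distal segments, Vim in glomeruli and vessels, and Cd44 in leukocytes.

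The values are FPKM, fragments scaled to transcript length and to sequencing depth, so levels can be set against each other between genes. The spacing of the lowest values put the depth at about 7780000 fragments in diet replicate 1 to about 10100000 in tofogliflozin replicate 1. The tissue label was met by proximal tubule genes: Slc34a1, the main phosphate transporter of that segment, was at 2138, 2292 and 2128 FPKM with tofogliflozin and at 2566, 2286 and 2645 FPKM with the diet alone. All 20 genes of a list of differentiated proximal tubule genes were above the filter on low values. Slc5a2, which encodes SGLT2, was at 161, 168 and 163 FPKM with tofogliflozin and at 172, 149.8 and 221 FPKM with the diet alone. Over the whole table, 24 genes were higher and 7 lower with the drug among 12248 tested (limma, Benjamini-Hochberg adjusted p under 0.05), which is 0.253% of the genes. That count moved between 2 without tofogliflozin replicate 3 and 66 without diet replicate 2, and was 4, 18, 9 and 57 without tofogliflozin replicate 1, tofogliflozin replicate 2, diet replicate 1 and diet replicate 3.

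The injury and repair markers did not move as a block. Of the 31, 26 passed the filter (1 FPKM or more in 3 or more libraries), and 0 of these 26 passed the threshold over all genes tested, either way (limma). At an unadjusted p under 0.05 there were 7 (26.9%), against 13.1% of all genes tested. Of these, 5 were higher and 2 lower with tofogliflozin, where 6.7% of all genes tested were higher and 6.39% lower. The same 7 had all tofogliflozin libraries on one side of all diet libraries, against 18.5% of all genes tested, 9.63% higher and 8.86% lower. Cp, Cdkn1a, Anxa2, Anxa3 and S100a10 were the 5 higher genes, and Itgb6 and Tnfrsf12a the 2 lower ones. Of the 26, 18 had a positive log2 change and the median was 0.09, against a median of -0.00075 and 49.7% above 0 for all genes tested. The median was 0.15 without diet replicate 2 and also without tofogliflozin replicate 3. Because the set was chosen with earlier results known, no share was tested against that of all genes.

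The promoters of Cp, Itgb6 and Tnfrsf12a are shown because these members had the smallest p of the set. Each is the RefSeq window on build GRCm38.p6 from 250 bases before to 50 after the transcription start, read 5′ to 3′ on the gene's own strand. The windows are chr3:19956804-19957103 on the plus strand for Cp, chr2:60722554-60722853 on the minus strand for Itgb6 and chr17:23677400-23677699 on the minus strand for Tnfrsf12a. For Cp and Itgb6 the table lists 2 starts, and the one nearest to the gene's annotated 5′ end was taken. Capitals mark matches, on either strand, to the AP-1 motif TGANTCA, the TEAD motif GGAATG, the HIF core ACGTG or TATAAA.

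Cp: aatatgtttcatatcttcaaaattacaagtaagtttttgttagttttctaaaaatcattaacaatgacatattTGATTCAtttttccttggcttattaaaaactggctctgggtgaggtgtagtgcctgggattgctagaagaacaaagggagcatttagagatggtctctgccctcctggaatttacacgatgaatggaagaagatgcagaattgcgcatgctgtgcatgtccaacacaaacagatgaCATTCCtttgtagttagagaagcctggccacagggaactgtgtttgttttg

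Itgb6: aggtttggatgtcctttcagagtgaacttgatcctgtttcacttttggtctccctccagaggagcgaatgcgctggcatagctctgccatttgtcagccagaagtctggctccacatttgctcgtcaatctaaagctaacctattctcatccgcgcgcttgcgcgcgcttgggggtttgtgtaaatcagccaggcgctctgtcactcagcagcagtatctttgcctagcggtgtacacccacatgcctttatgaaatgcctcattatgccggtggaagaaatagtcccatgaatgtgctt

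Tnfrsf12a: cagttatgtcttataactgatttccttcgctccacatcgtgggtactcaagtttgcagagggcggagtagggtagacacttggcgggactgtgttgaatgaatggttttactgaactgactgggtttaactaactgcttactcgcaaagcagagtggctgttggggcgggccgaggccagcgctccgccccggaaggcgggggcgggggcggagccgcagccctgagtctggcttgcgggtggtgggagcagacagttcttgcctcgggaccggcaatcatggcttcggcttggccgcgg

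The Cp window held 1 match to the AP-1 motif, 177 bases before the start, and 1 to the TEAD motif, read on the other strand, that begins 1 base before the start. The windows of Itgb6 and Tnfrsf12a held none of the 4 motifs. Among all 32851 promoter windows in the table, 7.81% held the AP-1 motif, 14.7% the TEAD motif, 19.6% the HIF core and 13.6% TATAAA. No matches overlapped.

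Levels within the set differed by several orders of magnitude. Igfbp7, a secreted insulin-like growth factor binding protein, was the most abundant, with 1291, 1205 and 1118 FPKM with tofogliflozin and 1019, 989 and 1202 FPKM with the diet alone. Spp1 (osteopontin) followed, and then S100a11, S100a10 and Clu. At the other end Krt20, Sox9, Havcr1, Cd44 and Cdh6 averaged 0.111 to 0.623 FPKM over the 6 libraries and did not pass the filter. Krt8, Cd24a, Krt7 and Anxa5 lay between, at 54.7 to 73.3 FPKM on average, above at least 93.3% of all genes listed.

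**Figure D1:**
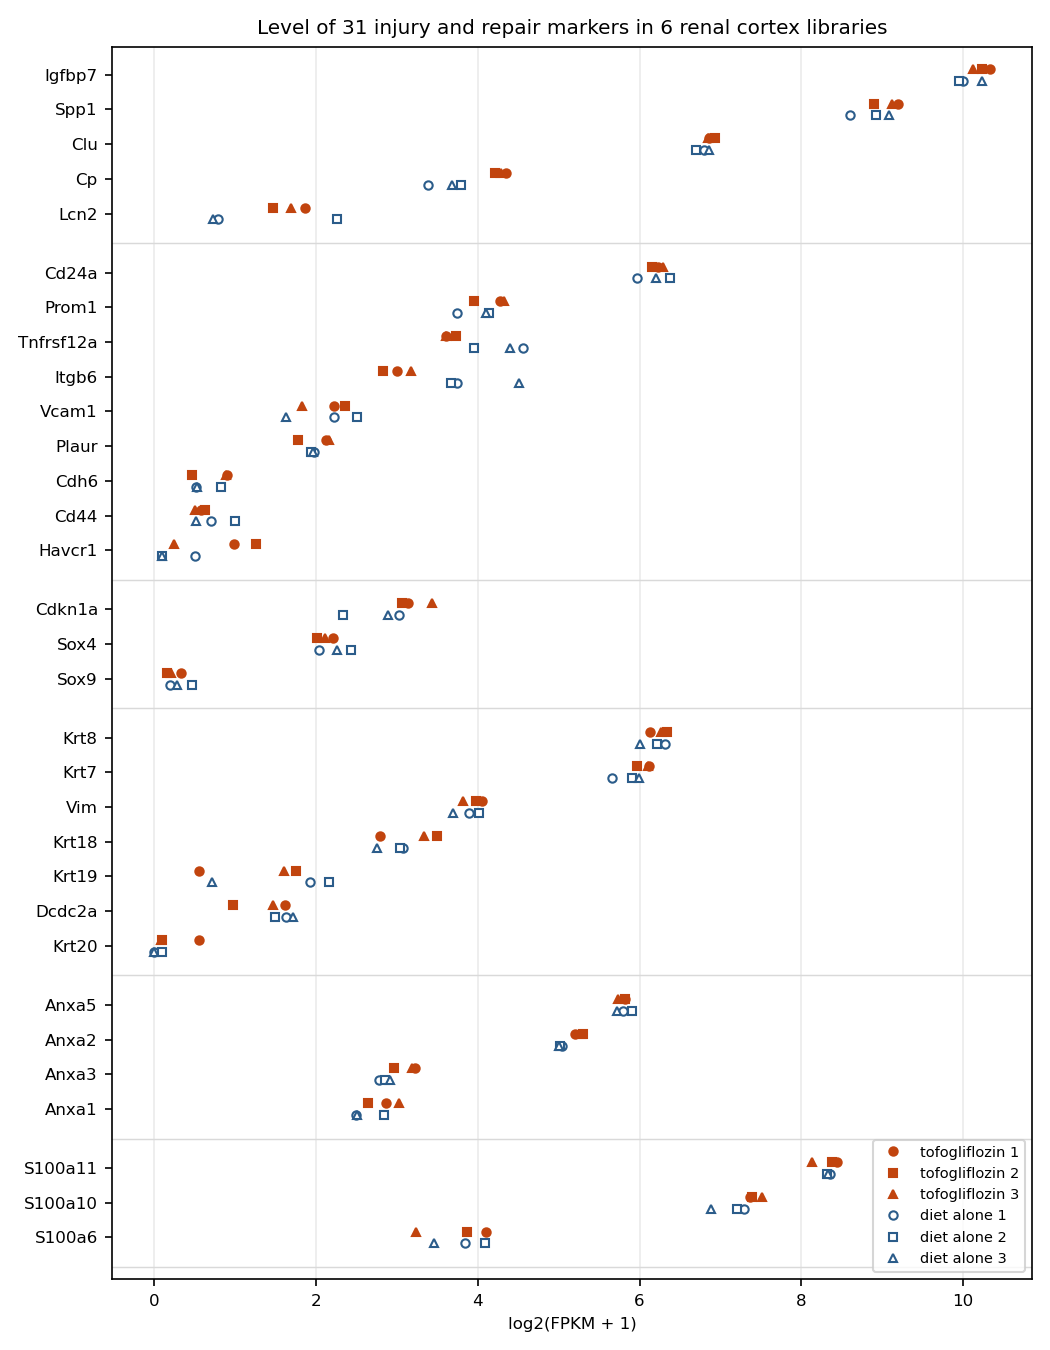
The level of each of the 31 members on the log2(FPKM + 1) axis, with filled symbols for the 3 tofogliflozin libraries and open symbols for the 3 diet libraries, grouped from top to bottom as secreted proteins, surface proteins, nuclear factors, cytoskeleton, annexins and S100 proteins. For Cp the tofogliflozin symbols lie right of all diet symbols, and for Itgb6 and Tnfrsf12a they lie left of them.

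The low members include the genes most used to call acute tubular injury. Havcr1 was at 0.979, 1.39 and 0.187 FPKM with tofogliflozin and at 0.422, 0.0701 and 0.0646 FPKM with the diet alone. From the spacing of the values these are 18, 20 and 3 fragments with tofogliflozin against 6, 1 and 1 with the diet alone. Tofogliflozin replicates 1 and 2 were above every diet library, while replicate 3 was below diet replicate 1, so the groups overlap. With no filter set, the log2 change of Havcr1 was 0.60 (95% interval -0.03 to 1.22; limma adjusted p = 0.477).

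Krt20, a keratin of damaged proximal tubule and of urothelium, rested on 9, 1 and 1 fragments with tofogliflozin and on 0, 1 and 0 with the diet alone. In FPKM these are 0.472, 0.0669 and 0.0602 with tofogliflozin, and 0, 0.0676 and 0 with the diet alone. Of the 12 fragments, 9 came from tofogliflozin replicate 1.

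Sox9, the transcription factor of regenerating tubule cells, was at 0.253, 0.117 and 0.158 FPKM with tofogliflozin and at 0.149, 0.385 and 0.218 FPKM with the diet alone. These are 11, 4 and 6 fragments against 5, 13 and 8. The libraries of both groups were interleaved. Cdh6, a cadherin of the embryonic tubule, was at 0.858, 0.381 and 0.856 FPKM with tofogliflozin and at 0.434, 0.769 and 0.443 FPKM with the diet alone. Cd44, the hyaluronan receptor, was at 0.495, 0.550 and 0.421 FPKM with tofogliflozin and at 0.627, 1.0 and 0.435 FPKM with the diet alone. Diet replicate 2 held the highest value of both Sox9 and Cd44, and both genes overlapped between groups. With no filter, the limma adjusted p of these 4 genes ran from 0.617 for Krt20 to 0.807 for Cdh6. At this depth such values carry a large counting error for Krt20, Sox9 and Cdh6, while no fragment number could be read for Cd44. Differences of this size between the groups were not detected for any of the 4.

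**Figure D2:**
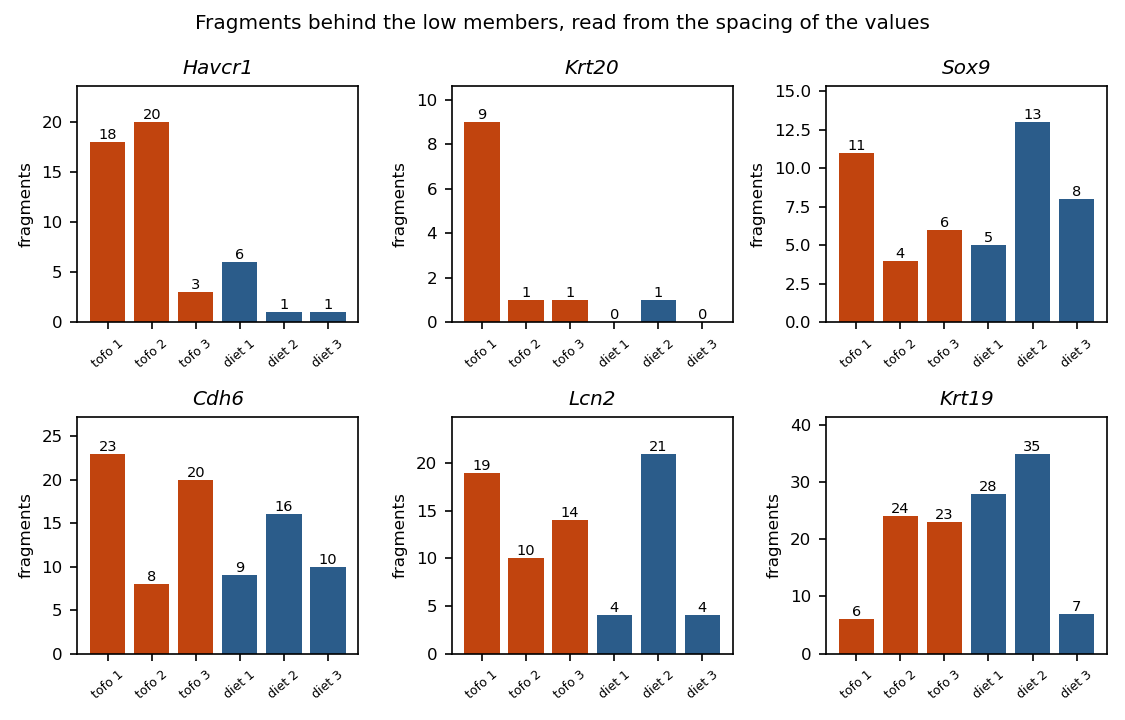
Fragments behind 6 low members in each library, as bars from 0, with the 3 tofogliflozin libraries left of the 3 diet libraries. Havcr1 stands at 18 and 20 fragments in tofogliflozin replicates 1 and 2 and at 6 or fewer elsewhere, and Lcn2 and Krt19 vary as much within a group as between the groups.

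Among the secreted proteins, and over the whole set, Cp had the smallest p. It encodes ceruloplasmin, the copper-carrying ferroxidase of plasma that injured tubule cells also make. Cp was at 19.4, 17.6 and 18.4 FPKM with tofogliflozin and at 9.45, 12.8 and 11.8 FPKM with the diet alone. All 3 tofogliflozin libraries were above all 3 diet libraries, and the means were 18.5 ± 0.892 and 11.4 ± 1.72 FPKM (SD, n = 3 each), a ratio of 1.63. The log2 change was 0.67 ± 0.11 (SE; 95% interval 0.41 to 0.92), with a limma adjusted p of 0.0680, just short of the threshold. Without diet replicate 2 it passed (log2 change 0.75, adjusted p = 0.0360). Over the leave-outs and other settings the adjusted p ran from 0.0306 to 0.258. In the GRCm38 annotation Cp spans 19957054 to 20009145 on the plus strand of chromosome 3 and its end overlaps Hps3 on the opposite strand. Whether strand was used in counting is not given in the sources used here.

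Lcn2 encodes neutrophil gelatinase-associated lipocalin, an iron-scavenging protein released by distal tubule cells under stress. It was at 2.64, 1.78 and 2.24 FPKM with tofogliflozin and at 0.720, 3.77 and 0.661 FPKM with the diet alone. The tofogliflozin values lay between the low diet replicates 1 and 3 and the high diet replicate 2. The log2 change was 0.42 (95% interval -0.44 to 1.29; limma adjusted p = 0.688), and it depended on which diet library was left out: 0.92 without diet replicate 2 (adjusted p = 0.0635), 0.18 without diet replicate 1 (0.927) and 0.16 without diet replicate 3 (0.896).

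Spp1, a matrix glycoprotein, was at 587, 476 and 554 FPKM with tofogliflozin and at 387, 484 and 542 FPKM with the diet alone. Clu (clusterin), a secreted chaperone, was at 115, 121 and 114 FPKM with tofogliflozin and at 110.4, 103 and 115 FPKM with the diet alone. Both overlapped between groups. The 95% interval of the log2 change ran from -0.12 to 0.52 for Spp1, from -0.07 to 0.26 for Clu and from -0.08 to 0.43 for Igfbp7. All 5 secreted members had a log2 change above 0, and 0 passed (limma), with 1, Cp, at an unadjusted p under 0.05.

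The lower genes were both receptors. Itgb6 encodes the beta chain of integrin αvβ6, which epithelia display after injury and which releases TGF-β from its latent form. It was at 7.02, 6.08 and 7.99 FPKM with tofogliflozin and at 12.4, 11.7 and 21.7 FPKM with the diet alone. The tofogliflozin libraries were close together and all below the diet libraries, of which replicate 3 was well above the other two. The means were 7.03 ± 0.957 and 15.3 ± 5.60 FPKM (SD, n = 3 each), lower with the drug by a factor of 2.17. The log2 change was -0.97 ± 0.21 (SE; 95% interval -1.46 to -0.48), with a limma adjusted p of 0.124. Without diet replicate 3 it was -0.71 (adjusted p = 0.0656). The gene spans 60598292 to 60722643 on chromosome 2 (minus strand) and overlaps no other annotated gene.

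Tnfrsf12a encodes Fn14, the receptor of the cytokine TWEAK, which is low in resting tubule and induced by damage. Tnfrsf12a was at 11.2, 12.3 and 11.2 FPKM with tofogliflozin and at 22.6, 14.5 and 20.0 FPKM with the diet alone. Every tofogliflozin library was below every diet library, and diet replicate 2 was nearest to them. The means were 11.5 ± 0.633 and 19.0 ± 4.11 FPKM (SD, n = 3 each), lower with the drug by a factor of 1.65. The log2 change was -0.66 ± 0.15 (SE; 95% interval -0.99 to -0.32; limma adjusted p = 0.125). Without diet replicate 2 it passed (log2 change -0.83, adjusted p = 0.0200). Over the leave-outs and other settings the adjusted p ran from 0.0200 to 0.397. The gene spans 23675445 to 23677468 on the minus strand of chromosome 17, with no overlapping gene.

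The 4 other surface proteins that passed the filter overlapped between the groups. Vcam1, an adhesion molecule that marks tubule cells of failed repair and activated endothelium, was at 3.69, 4.12 and 2.54 FPKM with tofogliflozin and at 3.67, 4.68 and 2.09 FPKM with the diet alone. Replicates within a group differed more than the groups did (log2 change 0.02, 95% interval -0.52 to 0.55). Plaur, the urokinase receptor, averaged 3.08 ± 0.578 FPKM with tofogliflozin and 2.89 ± 0.0540 FPKM with the diet alone (SD, n = 3 each). The progenitor markers Prom1 (CD133) and Cd24a averaged 17.3 ± 2.47 and 73.9 ± 3.73 FPKM with tofogliflozin, against 15.1 ± 2.28 and 72.2 ± 10.1 FPKM with the diet alone. The limma adjusted p of these 4 genes ran from 0.595 for Prom1 to 0.981 for Vcam1.

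**Figure D3:**
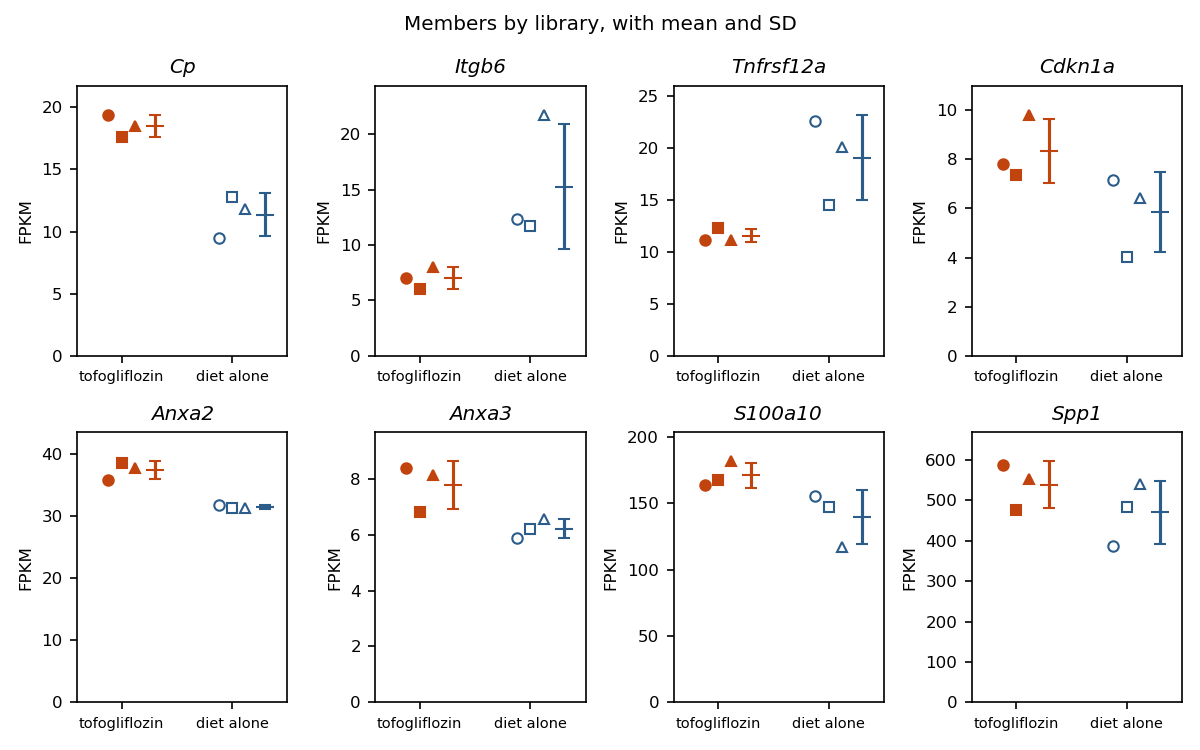
FPKM of 8 members in each library, with tofogliflozin on the left and the diet alone on the right of each panel, and the mean with its SD beside the points. The groups do not overlap in 7 panels, while in that of Spp1 they do.

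Cdkn1a encodes p21, which arrests the cell cycle after damage. It was at 7.82, 7.36 and 9.80 FPKM with tofogliflozin and at 7.14, 4.04 and 6.40 FPKM with the diet alone. The groups did not overlap, but tofogliflozin replicate 2 and diet replicate 1 were almost level. The log2 change was 0.46 ± 0.18 (SE; 95% interval 0.04 to 0.89; limma adjusted p = 0.335), and it was 0.26 without diet replicate 2. Sox4, a transcription factor of tubule development and injury, averaged 3.33 ± 0.299 FPKM with tofogliflozin and 3.77 ± 0.653 FPKM with the diet alone (SD, n = 3 each; adjusted p = 0.701).

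Cdkn1a can be set beside other targets of p53, the damage-sensing factor that induces it. Of 18 such genes measured, 16 were tested and 0 passed (limma). At an unadjusted p under 0.05, 2 were higher and 2 lower (25%), against 13.1% of all genes tested. Gdf15, a stress cytokine, was at 4.93, 9.57 and 5.43 FPKM with tofogliflozin and at 16.6, 22.6 and 9.64 FPKM with the diet alone (log2 change -1.15, adjusted p = 0.191). Sesn2, a stress-induced inhibitor of growth signalling, averaged 31.8 ± 2.30 FPKM with tofogliflozin and 20.6 ± 6.47 FPKM with the diet alone (SD, n = 3 each; adjusted p = 0.206). Of 20 cell-cycle genes, 13 were tested and 0 passed, with 1 lower and 0 higher at an unadjusted p under 0.05 (7.69%).

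Of the cytoskeletal members, 0 of 6 tested reached an unadjusted p under 0.05 (limma). Krt7, a keratin of simple epithelia, was at 68.2, 61.5 and 68.0 FPKM with tofogliflozin and at 49.4, 58.9 and 62.8 FPKM with the diet alone. Tofogliflozin replicate 2 was below diet replicate 3 only (log2 change 0.21, 95% interval -0.02 to 0.44). The paired keratins Krt8 and Krt18, which form filaments together, averaged 74.9 ± 5.61 and 8.45 ± 2.29 FPKM with tofogliflozin, against 71.8 ± 7.82 and 6.80 ± 0.916 FPKM with the diet alone (SD, n = 3 each).

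Krt19 varied most among the tested members. It was at 0.464, 2.37 and 2.04 FPKM with tofogliflozin and at 2.80, 3.49 and 0.643 FPKM with the diet alone, and these are 6, 24 and 23 fragments against 28, 35 and 7. In both groups 1 library was far below the others, tofogliflozin replicate 1 and diet replicate 3. A list of 10 urothelial genes was summed per library, because urothelium lines the renal pelvis and makes keratins 7, 19 and 20. The sums were 7.03, 21.1 and 13.2 FPKM with tofogliflozin and 23.1, 15.5 and 9.02 FPKM with the diet alone, lowest in the 2 libraries where Krt19 was lowest. None of the 10 was at 0 in all libraries, and the part of urothelium in the Krt19 values was not tested. Vim averaged 14.5 ± 1.23 FPKM with tofogliflozin and 13.6 ± 1.60 FPKM with the diet alone, and Dcdc2a, a microtubule-binding protein, 1.60 ± 0.568 FPKM with tofogliflozin and 2.06 ± 0.228 FPKM with the diet alone (SD, n = 3 each).

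The annexins are calcium-dependent membrane-binding proteins that take part in membrane repair. Anxa2 was at 35.8, 38.6 and 37.6 FPKM with tofogliflozin and at 31.8, 31.3 and 31.2 FPKM with the diet alone. Its libraries were tightly grouped and did not overlap, with a log2 change of 0.24 ± 0.06 (SE; 95% interval 0.09 to 0.39; limma adjusted p = 0.196). S100a10, whose protein binds annexin A2 in a complex, was at 164, 167 and 181 FPKM with tofogliflozin and at 155, 147 and 117 FPKM with the diet alone. Its groups did not overlap either, with a log2 change of 0.30 ± 0.11 (SE; 95% interval 0.04 to 0.56; adjusted p = 0.307), and 0.18 without diet replicate 3.

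Anxa3 was at 8.38, 6.79 and 8.13 FPKM with tofogliflozin and at 5.88, 6.20 and 6.56 FPKM with the diet alone, again with no overlap (log2 change 0.28 ± 0.10 (SE); limma adjusted p = 0.279). Anxa1, an annexin with anti-inflammatory action, averaged 6.23 ± 0.962 FPKM with tofogliflozin and 5.16 ± 0.875 FPKM with the diet alone (SD, n = 3 each), and its groups overlapped. Anxa5 averaged 54.3 ± 1.90 FPKM with tofogliflozin and 55.1 ± 3.68 FPKM with the diet alone (SD, n = 3 each; 95% interval of the log2 change -0.19 to 0.15). The small calcium-binding proteins S100a11 and S100a6 had log2 changes of -0.02 (95% interval -0.24 to 0.20) and -0.06 (-0.60 to 0.47). S100a6 was lowest in replicate 3 of both groups, at 8.45 FPKM with tofogliflozin and 9.99 FPKM with the diet alone.

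**Figure D4:**
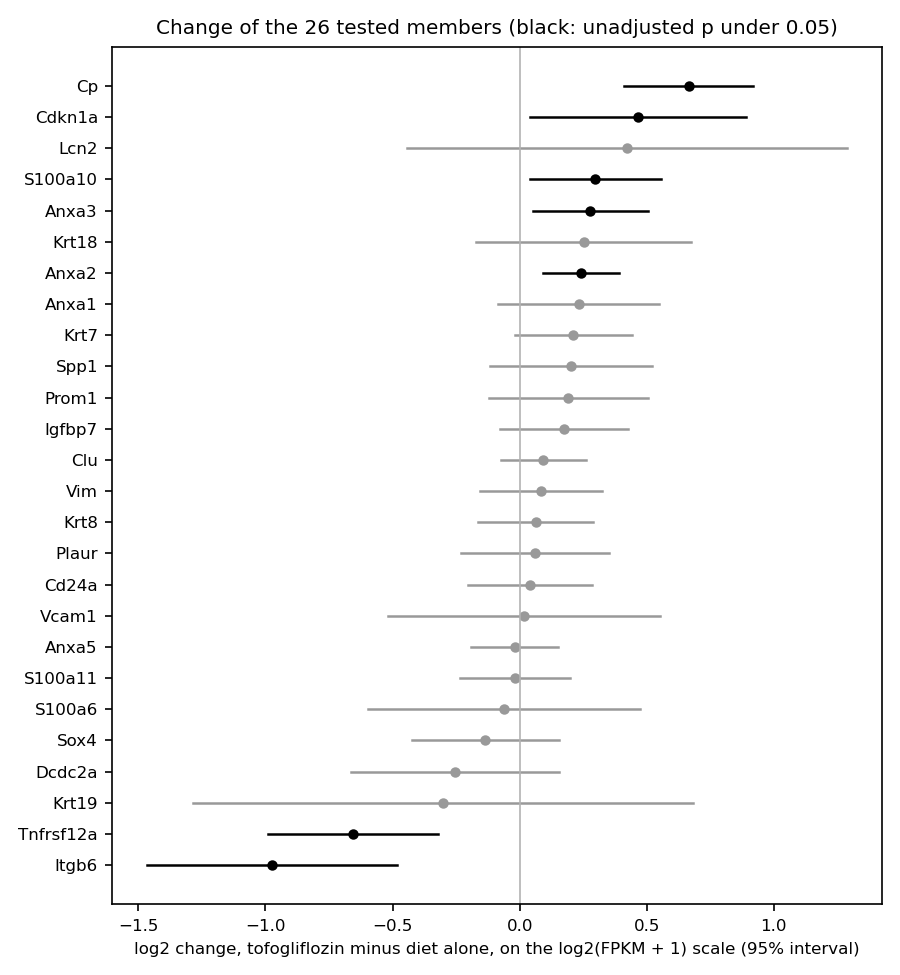
Log2 change of the 26 tested members, tofogliflozin minus diet alone, with its 95% interval from limma; black marks an unadjusted p under 0.05. Cp is at the top at 0.67, Tnfrsf12a and Itgb6 are at the bottom at -0.66 and -0.97, and 19 intervals include 0.

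No library was high or low across the set. Diet replicate 2 held the highest of the 6 values for 6 of the 26 tested members and tofogliflozin replicate 1 for 8, while diet replicate 3 held the lowest for 8 and diet replicate 1 for 7. The mean deviation of the 26 from their 6-library means was 0.04, 0.00 and 0.05 on the log2 scale with tofogliflozin, and -0.06, 0.06 and -0.09 with the diet alone. Diet replicate 2 was therefore above all 3 tofogliflozin libraries. In that library the 16 macrophage markers summed to 429 FPKM, against 179, 206 and 144 FPKM with tofogliflozin and 236 and 160 FPKM in diet replicates 1 and 3. As a list, 11 of 12 tested macrophage markers had a log2 change below 0, with a median of -0.43. At an unadjusted p under 0.05, 2 were lower and 0 higher (16.7%), against 13.1% of all genes tested, and 0 passed (limma). The 6 tested members highest in diet replicate 2 were Lcn2, Vcam1, Krt19, Sox4, Cd24a and Anxa5. Cd44 and Sox9, which are under the filter, were highest there as well. None of the 16 macrophage markers was at 0 in all libraries, and their part in these values was not tested.

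Markers of the distal nephron had mostly positive changes, as did most members. Among 9 tested genes of collecting duct principal cells, 8 were higher with tofogliflozin (median log2 change 0.28), and 0 passed the threshold (limma). At an unadjusted p under 0.05, 6 were higher and 0 lower (66.7%), against 13.1% of all genes tested, either way. For the higher direction alone, the share of all genes tested was 6.7%. The summed level of the principal cell genes, with 1 further gene under the filter, was 384.5, 433 and 384.7 FPKM with tofogliflozin. With the diet alone it was 286, 357 and 345 FPKM. Scnn1g, a subunit of the epithelial sodium channel, averaged 17.7 ± 0.179 FPKM with tofogliflozin and 13.0 ± 0.388 FPKM with the diet alone (SD, n = 3 each; adjusted p = 0.0644). All 7 intercalated cell genes and all 6 distal tubule genes also had a change above 0, with medians of 0.21 and 0.29. Outside the tubule, 5 of 7 podocyte genes were above 0 as well (median 0.13), and 6 of 11 endothelial genes (median 0.03). The thick ascending limb list was mixed, with 4 of 7 above 0 and a median of 0.03, as was that of papilla and thin limb, with 3 of 5 above 0. In bulk tissue more cells of a type and more RNA per cell cannot be told apart, and the part of these segments in the values of the higher members was not tested. Itgb6 and Tnfrsf12a went the other way.

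**Figure D5:**
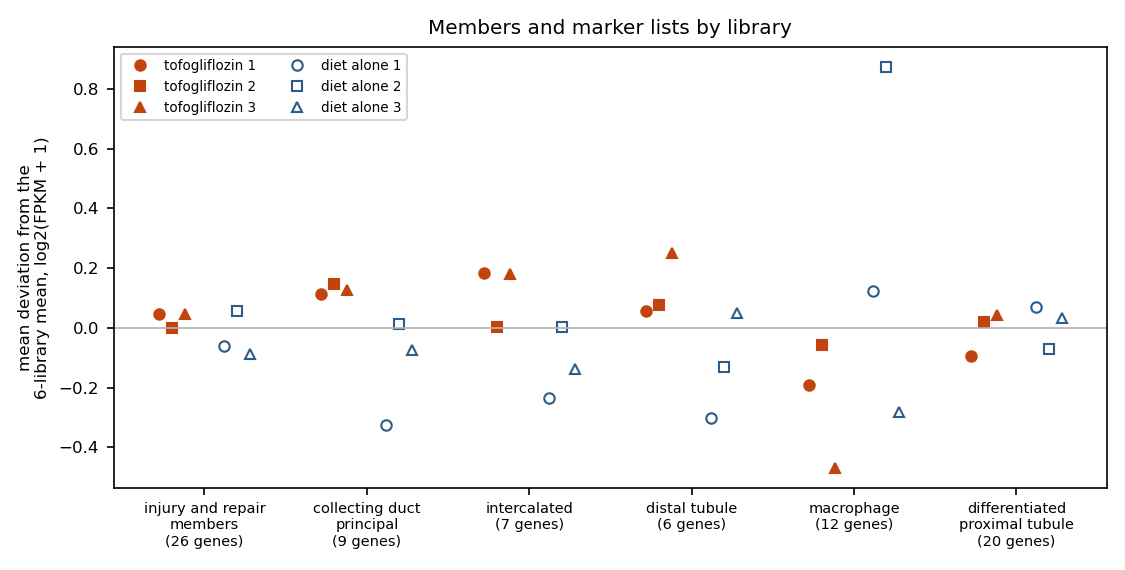
Mean deviation of the tested genes of each list from their 6-library means, on the log2(FPKM + 1) scale, with filled symbols for tofogliflozin and open symbols for the diet alone. For collecting duct principal cells all 3 tofogliflozin libraries lie above the diet libraries, macrophage markers are highest in diet replicate 2, and the members overlap between the groups.

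Genes that go down when proximal tubule cells lose their specialised state did not move together either. Of 20 differentiated proximal tubule genes, 3 were higher and 4 lower at an unadjusted p under 0.05 (35%), against 13.1% of all genes tested. The median log2 change was -0.09, and 0 passed (limma). Slc22a8, an organic anion transporter, averaged 254 ± 16.8 FPKM with tofogliflozin and 169.6 ± 26.8 FPKM with the diet alone, and Slc22a12, the urate transporter, 688 ± 107 FPKM with tofogliflozin and 1122 ± 224 FPKM with the diet alone (SD, n = 3 each). Lrp2 (megalin), the endocytic receptor, was at 197, 169.8 and 218 FPKM with tofogliflozin and at 191, 228 and 220.4 FPKM with the diet alone.

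Targets of TGF-β, which αvβ6 releases, and of the mechanosensor YAP formed a further list. Of 17 measured, 14 were tested and 0 passed (limma). At an unadjusted p under 0.05 there were 2 (14.3%), against 13.1% of all genes tested. Cyr61, a matricellular YAP target, averaged 15.1 ± 3.36 FPKM with tofogliflozin and 22.3 ± 2.49 FPKM with the diet alone (SD, n = 3 each; adjusted p = 0.201). Tgfb1 averaged 4.74 ± 1.67 FPKM with tofogliflozin and 6.64 ± 1.10 FPKM with the diet alone (adjusted p = 0.429).

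A wider list of 43 other injury-associated genes was also counted, some of them included because earlier results of these data were known. Of 33 tested, 0 passed (limma), while 9 were higher and 6 lower at an unadjusted p under 0.05. This was 45.5%, against 13.1% of all genes tested. Because of how some genes were chosen, these shares cannot be compared. Cyr61 is counted in this list as well. Bcl3, an NF-κB cofactor, averaged 2.93 ± 0.336 FPKM with tofogliflozin and 5.11 ± 0.0323 FPKM with the diet alone (SD, n = 3 each; adjusted p = 0.0541). Igfbp1, a binding protein that low insulin induces in liver, averaged 27.6 ± 12.6 FPKM with tofogliflozin and 12.2 ± 1.28 FPKM with the diet alone (SD, n = 3 each; adjusted p = 0.166).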

How the data were processed

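Renal cortex RNA of 3 mice per group was sequenced with a strand-specific mRNA kit, per the labels' protocols. The authors deposited 1 table of FPKM values per library. The submitters' processing notes name Cuffdiff 2.2.1, TopHat2 2.1.1, SAMtools 0.1.18 and Bowtie2 2.2.8 and the build mm10. The sources used here do not give the annotation, the use of strand or the scaling between libraries. Upper quartiles lay between 10.5 and 10.6 FPKM in all files, so a scaling may be included.

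Genes reaching 1 FPKM in 3 or more libraries (12248) were put on the log2(FPKM + 1) scale, which understates changes of low genes. The comparison used limma 3.58.1 (R 4.3.3) with a trend of variance on mean and two-sided tests, p adjusted by Benjamini-Hochberg over the 12248 genes, a threshold of 0.05 and limma's 95% intervals. The fit was tested on simulated data. With 3 against 3 samples, an exact permutation test of 1 gene cannot give a p below 0.1, so none is reported. That samples of a group are separate mice is taken from the series' design text, which gives 3 per group.

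The files hold no counts. Relative depth came from the most frequent ratio between libraries over 3665 genes below 0.5 FPKM, and absolute depth from 425 such genes with 1 annotated transcript (quartiles 7330000 and 8060000 fragments for diet replicate 1). Fragments of low members are whole multiples within 0.03 plus 0.002 per fragment, up to 40, and are estimates; no count test was run. Positions are from GENCODE M21 (GRCm38).

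The members, lists, rule for named genes and alternatives were chosen with earlier results of these data known. Values in every library are given for members at an unadjusted p under 0.05, those without overlap, those under the filter and 8 fixed ones, and from each list genes of smallest p plus Slc34a1, Lrp2 and Slc5a2. Gene lists were only counted, with no test. A gene selected in this way is not reported here, though the counts include it. The lists of neutrophil, lymphocyte, fibroblast, endothelial, podocyte, parietal, thick ascending limb and papillary markers had 2, 3, 9, 11, 7, 3, 7 and 5 tested genes and 0 past the threshold each. Alternatives were a pseudocount of 0.1, no filter, a filter of 5 FPKM, upper-quartile scaling, quantile normalization, the replicate number as a block, no trend, array weights and leaving out each library. Figures were drawn with matplotlib 3.10.9.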

Additional observations from a re-analysis of the deposited data

How the results depend on the processing

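Of 152 repeats of the log2 changes of 11 members, 145 kept their direction and their side of the threshold. Cp and Tnfrsf12a passed with array weights (log2 changes 0.74 and -0.76, limma adjusted p = 0.0306 and 0.0364) and without diet replicate 2, which made 2 members past the threshold under each; under the other settings there were 0, so leaving out a library gave 0 to 2. Vcam1 changed sign in 3 of the 6 leave-outs and ran from -0.23 to 0.21 over all of them. The members at an unadjusted p under 0.05 numbered 4 to 8 with a library left out. The median change of the tested members was 0.18 with the filter of 5 FPKM, under which 20 were tested, and 0.085 to 0.15 with a library left out. Over all genes, 1 was called with no filter, 20 with the filter of 5 FPKM, 123 with array weights and 2 to 66 with a library left out. The cause of these shifts was not tested, except that fewer genes or libraries enter some of them. The replicate numbers are shared between the groups only as numbers: deviations of same-numbered libraries correlated at -0.05, -0.06 and 0.05, and tofogliflozin replicate 2 correlated best with diet replicate 1 (0.19). With the replicate block 26 genes and 0 members were called, 6 members had an unadjusted p under 0.05 and the median stayed at 0.09. Depth limits Havcr1, Krt20, Sox9, Cdh6, Lcn2 and Krt19, which rest on 35 or fewer fragments in every library.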
